A study of Mus musculus with 24 samples.

Results

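The genes described here make cholesterol or sense, move, release and esterify it. The list holds 28 genes, matched by symbol, and all 28 have 1 row each among the 16996 genes of the expression table. The pathway was chosen from the comparison of T-PNU with untreated tumors, where several of its genes, Sqle among them, had much lower values. That comparison is therefore given as a description with no test. The T-PNU samples that led to this choice also enter the comparisons of T-PNU with T-DM1 and with trastuzumab, so those tests are not independent of how the genes were chosen.

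RNA was sequenced from CD45+ leukocytes, enriched on magnetic beads from EMT6-hHER2 tumors that grew in the mammary fat pad of female, wild-type Balb/c mice aged 10 to 12 weeks. EMT6-hHER2 is a mouse breast cancer line that carries human HER2 and was derived from a single clone. Treated mice were dosed intravenously at a tumor volume of 80 mm3, and tumors were taken on day 10. There were 4 groups of 6 mice, namely untreated mice, mice given trastuzumab (20 mg/kg), mice given T-DM1 (15 mg/kg) and mice given T-PNU (1 mg/kg). Trastuzumab is an antibody against human HER2. T-DM1, or ado-trastuzumab emtansine, is trastuzumab coupled to a microtubule poison, and T-PNU is trastuzumab coupled through a peptide linker to a derivative of the anthracycline PNU-159682. The conjugates differed in dose, linker and payload, which cannot be told apart in a comparison between them. The paper reports that T-PNU tumors were smaller at harvest than at dosing, whereas trastuzumab and T-DM1 did not prevent tumor growth. It also marks some T-PNU samples as low-responding. Tumor size and response at harvest therefore cannot be told apart from treatment.

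Cholesterol is built from acetyl-CoA through mevalonate, farnesyl diphosphate, squalene and lanosterol. When sterols in the endoplasmic reticulum run low, the sensor Scap carries the transcription factor SREBP2, the product of Srebf2, to the Golgi, where it is cut and freed to switch on nearly every gene of the pathway and Srebf2 itself. When sterols are plentiful, Insig1 or Insig2 holds Scap back, and oxysterols act through the LXR receptors to raise the genes of cholesterol efflux. Dividing lymphocytes draw on the pathway for membranes, and macrophages take up sterol from the cells they engulf.

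The values are log2 expression values that the authors normalized for library size, so a difference of 1 log2 unit is a 2-fold difference. They are not scaled by gene length and are compared between samples only, never between genes. Sample medians over all genes lay between 8.73 and 8.87, read depth is unknown, and no pair of samples in a group held identical values, with root mean square differences between pairs from 0.203 to 0.752. The study's heatmaps label 20 of the 24 samples and leave out samples B1 and C1 of the untreated group and E2 and B3 of the trastuzumab group. All 24 samples are used here, and counts of calls that differ with the 20 samples are given beside them. The column headings hold a number for each sample, whose meaning is not stated. It ran from 288 to 293 in the untreated group and was 500 or above in the treated groups. Any effect of what it stands for cannot be told apart from treatment. Ptprc, which encodes CD45, lay between 14.01 and 15.52 in the 24 samples. It ran from 14.75 to 15.52 in T-PNU and from 14.01 to 14.61 in T-DM1 tumors. Krt8, a keratin of epithelial tumor cells, was also detected in every sample, between 11.69 and 13.77. Its values ran from 11.69 to 13.11 in T-PNU and from 13.17 to 13.77 in T-DM1 tumors. T-PNU and T-DM1 tumors thus overlapped for neither gene. In such bulk samples, fewer cells of a type and less RNA per cell cannot be told apart.

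Promoter windows of 250 bases before and 50 bases after the transcription start, on build GRCm38.p6 from RefSeq, were found for 23 of the 28 genes and not for Fdps, Fdft1, Sqle, Npc1 and Stard4. They were searched on both strands for 3 motifs. These were the sterol regulatory element TCACNCCAC, to which SREBP2 is known to bind, its shorter core CACNCCAC, which lies within every match of the longer motif, and the CCAAT box, the site of the factor NF-Y, a known partner of SREBP2. Pmvk and Scap had 2 windows each, Dhcr7 and Insig2 had 3 each, and a gene was counted when any of its windows matched. The CCAAT box was present in 21 of the 23 genes (91.3%), against 41.06% of 27025 genes with a window and 42.26% of the 11138 of those that were measured. The shorter core was present in 3 genes (13.04%, against 7.123% of all genes) and the full element in 1 (4.348%, against 1.436%). A match of letters is a description and was not tested as a binding site. Positions are counted from the RefSeq start, with -1 the base before it. The stretches printed here, 5′ to 3′, are the 3 that hold an element of the sterol type, followed by Mvd and Hsd17b7, which hold CCAAT boxes and no such element and were chosen after their values were seen. Capitals mark the motifs, on either strand.
Hmgcs1, chr13:119690101-119690350, plus strand: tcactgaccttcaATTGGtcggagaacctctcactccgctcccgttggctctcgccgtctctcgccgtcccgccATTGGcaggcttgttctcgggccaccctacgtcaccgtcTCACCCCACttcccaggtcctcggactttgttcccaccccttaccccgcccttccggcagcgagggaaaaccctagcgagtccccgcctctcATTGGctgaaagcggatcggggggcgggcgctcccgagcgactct
Acat2, chr17:12960748-12960975, minus strand: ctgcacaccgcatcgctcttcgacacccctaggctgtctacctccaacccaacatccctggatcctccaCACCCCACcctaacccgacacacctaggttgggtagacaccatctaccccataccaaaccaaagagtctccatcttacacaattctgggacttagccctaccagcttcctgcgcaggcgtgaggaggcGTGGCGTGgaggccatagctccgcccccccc
Insig1, chr5:28071382-28071411, plus strand: gggcgcggtacgtgtagtgtcGTGGCGTGt
Mvd, chr8:122443423-122443672, minus strand: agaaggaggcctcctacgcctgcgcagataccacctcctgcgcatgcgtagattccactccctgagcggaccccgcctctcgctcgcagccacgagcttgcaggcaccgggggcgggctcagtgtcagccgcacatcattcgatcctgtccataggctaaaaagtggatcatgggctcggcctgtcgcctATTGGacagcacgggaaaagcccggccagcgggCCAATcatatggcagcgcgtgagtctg
Hsd17b7, chr1:169969242-169969455, minus strand: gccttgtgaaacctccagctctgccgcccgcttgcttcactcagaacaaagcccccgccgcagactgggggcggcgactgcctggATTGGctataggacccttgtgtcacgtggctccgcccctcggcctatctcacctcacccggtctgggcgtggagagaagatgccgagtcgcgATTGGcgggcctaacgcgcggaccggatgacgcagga
The Hmgcs1 stretch carries the full element from -137 to -129 and 3 CCAAT boxes upstream of the start, all in reverse orientation. Acat2 carries the shorter core from -181 to -174 and, in reverse, from -53 to -46, with no CCAAT box in its window. The 30 bases of Insig1 hold the core in reverse from -9 to -2 and lie inside the GENCODE gene model. Scap and Acat2 are the genes with no CCAAT box in any of their windows.

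**Figure D1:**
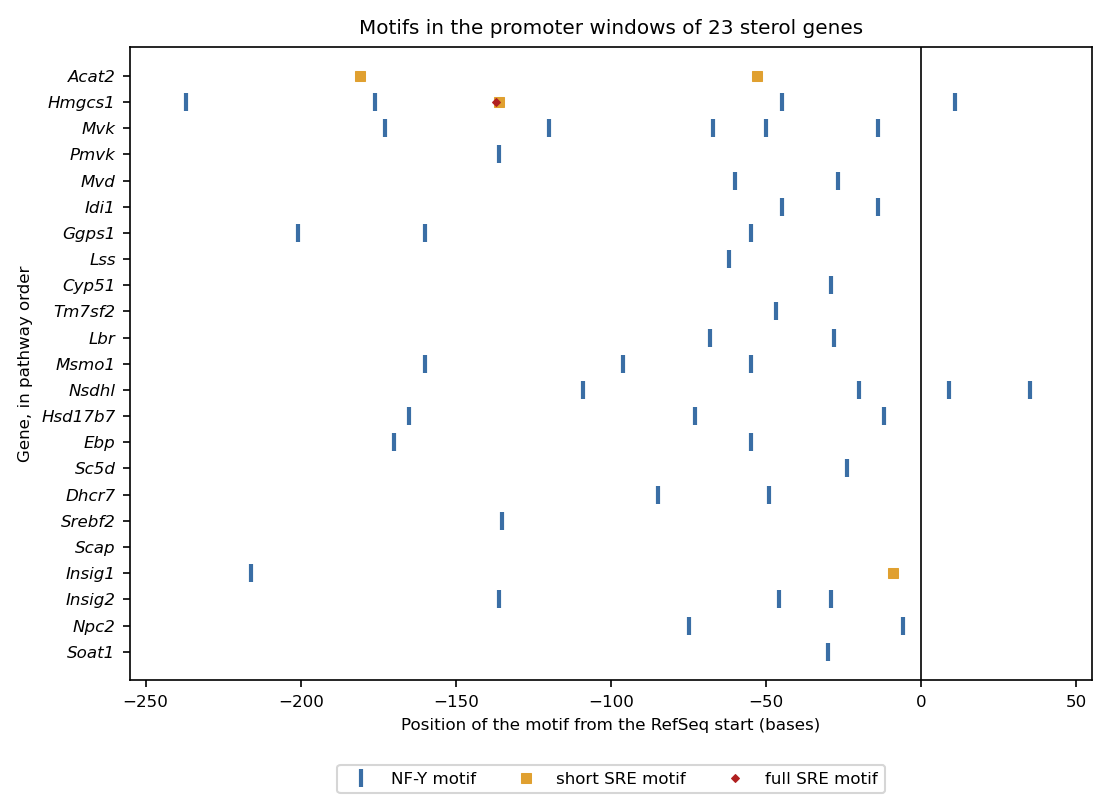
Positions of the 3 motifs in the promoter windows of the 23 sterol genes with a window, on either strand. The horizontal axis is the distance from the RefSeq start in bases, blue bars are CCAAT boxes (labelled by their factor, NF-Y), yellow squares the shorter sterol element and the red diamond the full one, which appears in Hmgcs1 alone of these genes.

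The sterol genes were low as a group in T-PNU tumors. With each gene set to its own mean over the 24 samples, the average over the 28 genes was between -0.35 and -0.24 log2 units in all 6 T-PNU samples. It lay between -0.00 and 0.28 in T-DM1, between -0.38 and 0.25 in untreated and between -0.27 and 0.34 in trastuzumab tumors. The T-PNU samples thus overlapped the untreated and trastuzumab groups but not the T-DM1 group. The low samples of the former groups were untreated C1 (-0.38) and trastuzumab E2 (-0.27) and B3 (-0.15), which are 3 of the 4 samples left out of the study's heatmaps. The fourth, untreated B1, stood at 0.12.

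**Figure D2:**
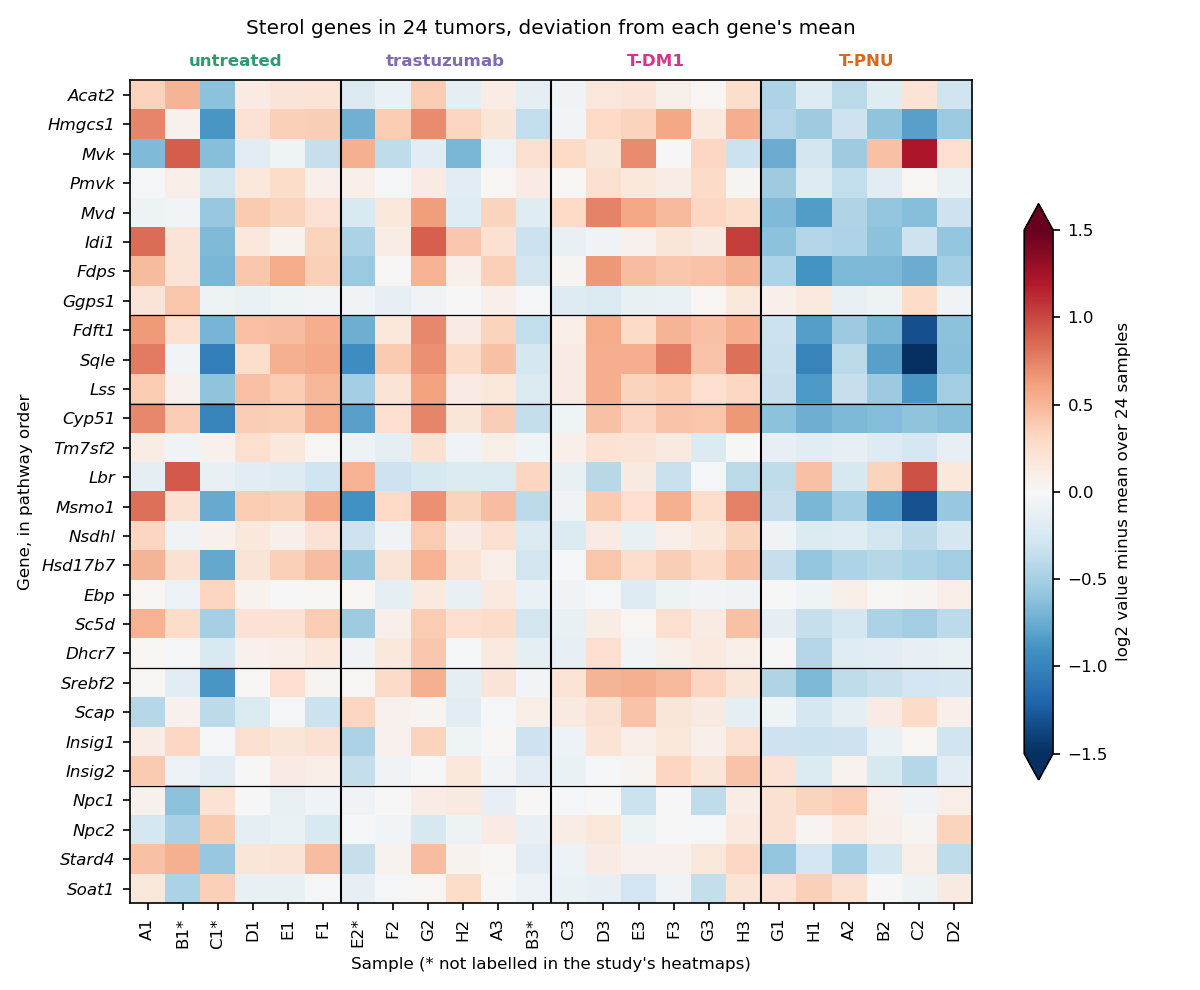
Log2 value of each of the 28 sterol genes (rows, in pathway order) in each of the 24 samples (columns, by group), minus the gene's mean over all samples. Red is above and blue below the mean, and an asterisk marks the 4 samples not labelled in the study's heatmaps. The T-PNU columns are blue for most rows from Hmgcs1 to Sc5d, untreated C1 and trastuzumab E2 resemble them, and Mvk and Lbr follow another pattern.

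Against untreated tumors, the contrast on which the genes were picked, 22 of the 28 had a lower mean in T-PNU tumors, and the median difference was -0.35 log2 units against 0.01 over all genes. Squalene epoxidase, Sqle, differed by -0.997 and squalene synthase, Fdft1, by -0.994. Msmo1 differed by -0.97, Cyp51 by -0.88 and Fdps by -0.88. In untreated tumors Sqle ran from 10.96 in C1 through a median of 12.40 to 12.78, and 5 of the 6 values were above the highest T-PNU value of 11.67. Cyp51 ran from 11.11 in C1 through 12.48 to 12.83 and Fdps from 6.75 in C1 through 7.81 to 8.00, and again C1 held the only value that was not above all T-PNU values. The means of Mvk, Lbr, Scap, Npc1, Npc2 and Soat1 were higher in T-PNU tumors, by 0.17 to 0.28. With C1 among the untreated samples, Tm7sf2 alone had every T-PNU value below every untreated value, a pattern found in 0.671% of all genes. Without the 4 samples that the heatmaps leave out, 20 genes had a lower mean, the median was -0.43 and 17 genes had every T-PNU value below every untreated value, as against 7.9% of all genes. Npc2 alone had every T-PNU value above every untreated value, a pattern found in 8.03% of all genes. Sqle then differed by -1.35 and Fdft1 by -1.25.

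The comparison of T-PNU with T-DM1 sets 2 conjugates of the same antibody, which differed in dose, linker and payload, against each other. Of the 28 sterol genes, 17 fell in T-PNU relative to T-DM1 tumors (limma, adjusted p under 0.05) and none rose, where 17.4% of all genes tested were called lower and 12.4% higher. The median difference of the 28 was -0.35 log2 units, against 0.03 over all genes. In 13 of the 28, every T-PNU value lay below every T-DM1 value, which held for 7.73% of all genes. The genes that fell were 5 of 8 of the mevalonate pathway, all 3 of the squalene and lanosterol steps, 6 of 9 of the later steps, 2 of 4 of the sensing genes and 1 of 4 of the transport and esterification genes. Both groups enter with the same 12 samples when the 4 others are left out, and only the estimate of the spread changes: 20 genes were then called lower and 2 higher, where 20.1% and 19.8% of all genes were called.

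**Figure D3:**
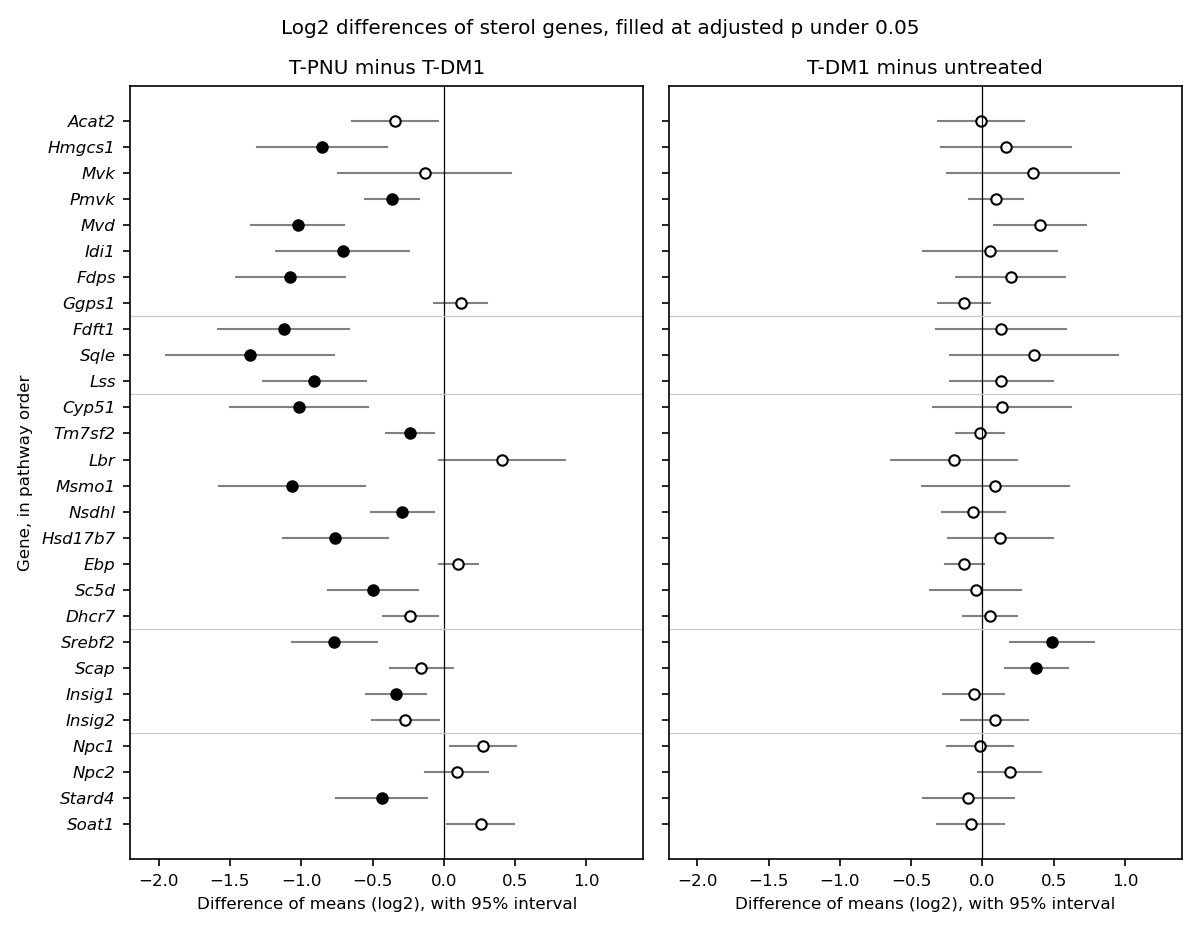
Difference of group means in log2 units (points) with 95% intervals (lines) for the 28 sterol genes, all 24 samples in the fit. Left, T-PNU minus T-DM1, and right, T-DM1 minus untreated; filled points passed an adjusted p of 0.05 over all genes. On the left 17 genes lie below 0 with filled points, and on the right only Srebf2 and Scap are filled, both above 0.

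The 3 genes that lead from farnesyl diphosphate to lanosterol had a median difference of -1.12 log2 units between T-PNU and T-DM1 tumors. Sqle, on chr15:59315077-59331192 of GRCm38, encodes the epoxidase that opens the way from squalene to sterols. Its values in T-PNU tumors were 10.26 at the lowest, 11.28 at the median and 11.67 at the highest, and in T-DM1 tumors 12.12, 12.54 and 12.83. All 6 T-PNU samples were lower than all 6 T-DM1 samples. The difference was -1.36 ± 0.29 (SE), or 2.56-fold, with an adjusted p of 0.00276.

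Fdft1, the squalene synthase, ranged from 9.37 through a median of 10.04 to 10.37 in T-PNU and from 10.79 through 11.17 to 11.25 in T-DM1 tumors. The groups did not overlap, and the difference was -1.12 ± 0.22 (adjusted p = 0.00205). Lss, which closes the sterol ring to form lanosterol, ranged from 8.88 through 9.23 to 9.42 and from 9.88 through 10.08 to 10.31. Here too the groups were apart, by -0.91 ± 0.17 (adjusted p = 0.00184). All 3 genes were lowest in T-PNU sample C2.

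In the mevalonate pathway, Mvd, the decarboxylase that makes isopentenyl diphosphate, had the smallest adjusted p of all 28 genes. Its T-PNU values ran from 7.83 through 8.05 to 8.35 and its T-DM1 values from 8.93 through 9.06 to 9.41. The gap between the groups was wider than the range within either, with a difference of -1.03 ± 0.16 (adjusted p = 0.000732). Fdps, the farnesyl diphosphate synthase, ran from 6.53 through 6.76 to 6.97 in T-PNU and from 7.47 through 7.88 to 8.09 in T-DM1 tumors. It fell by 1.08 log2 units, or 2.11-fold (adjusted p = 0.00114). Hmgcs1, whose promoter holds the full sterol element, ran from 11.28 through 11.55 to 11.78 and from 12.05 through 12.41 to 12.68. This synthase of HMG-CoA fell by 0.85 (adjusted p = 0.00773), again with no overlap.

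Idi1, the isomerase of isopentenyl diphosphate, fell by 0.71 (adjusted p = 0.023), and its T-DM1 values were spread by sample H3 at 8.09 above the other 5 at 6.94 to 7.23. Without H3 its adjusted p was 0.0592. Pmvk, the phosphomevalonate kinase, fell by a smaller amount, 0.37 (adjusted p = 0.0065). The 3 other genes of this pathway did not pass the test. Acat2, which makes acetoacetyl-CoA, differed by -0.34 with a 95% interval from -0.64 to -0.04, and its highest T-PNU value, 9.57 in C2, lay among those of T-DM1. Ggps1, which serves protein prenylation rather than sterols, differed by 0.12 with an interval from -0.07 to 0.30.

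Mvk, the mevalonate kinase, differed by -0.13 with an interval from -0.74 to 0.47, the widest of the 28 genes. Its T-PNU values ran from 8.797 in G1 to 10.75 in C2. Lbr, a sterol reductase that is also the lamin B receptor of the nuclear envelope, likewise ran from 10.92 in G1 to 12.26 in C2. Both genes were also the highest of their group in untreated B1, where Mvk stood at 10.44 and Lbr at 12.21, and in trastuzumab E2, where they stood at 10.06 and 11.82. T cell markers were at the highest level of their group in the same C2, B1 and E2 samples (1.83, 1.48 and 1.23 log2 units above the mean over 24 samples). B cell markers were also the highest of their group in B1 (1.88) and E2 (2.25). In C2 they stood at 2.03, below 2.21 in T-PNU H1. The part of T cells or B cells in these values was not tested.

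Among the later steps, Cyp51, the demethylase that acts on lanosterol, was held within a narrow range in T-PNU tumors, from 11.38 through 11.46 to 11.51 (SD 0.045, n = 6). Its T-DM1 values ran from 12.04 through 12.53 to 12.76 (SD 0.237). The difference was -1.02 ± 0.23 (adjusted p = 0.00428). Msmo1, the methylsterol monooxygenase that acts after it, ran from 10.50 through 11.18 to 11.46 and from 11.76 through 12.13 to 12.56, and fell by 1.07 (adjusted p = 0.00456). Hsd17b7, a ketoreductase of the same demethylation complex, ran from 9.08 through 9.20 to 9.33 and from 9.64 through 10.00 to 10.11, and fell by 0.76 (adjusted p = 0.00458). None of these 3 genes overlapped between T-PNU and T-DM1.

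Sc5d, a desaturase near the end of the pathway, fell by 0.50 (adjusted p = 0.0192), also with no overlap. Nsdhl, the dehydrogenase of the demethylation complex, fell by 0.29 (adjusted p = 0.0432), and Tm7sf2, a sterol reductase, fell by 0.24 (adjusted p = 0.0323). Values of these last 2 genes overlapped, and leaving out 1 library ended the call of Nsdhl in 8 of 12 fits and of Tm7sf2 in 6 of 12. Dhcr7, the reductase of the final step, differed by -0.23 with an interval from -0.42 to -0.04 and an adjusted p of 0.0581. Ebp, the isomerase before Sc5d, differed by 0.10, with an interval from -0.04 to 0.24, and lay between 10.33 and 10.84 in all 24 samples. Lbr differed by 0.41, with an interval from -0.03 to 0.85 (adjusted p = 0.146).

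**Figure D4:**
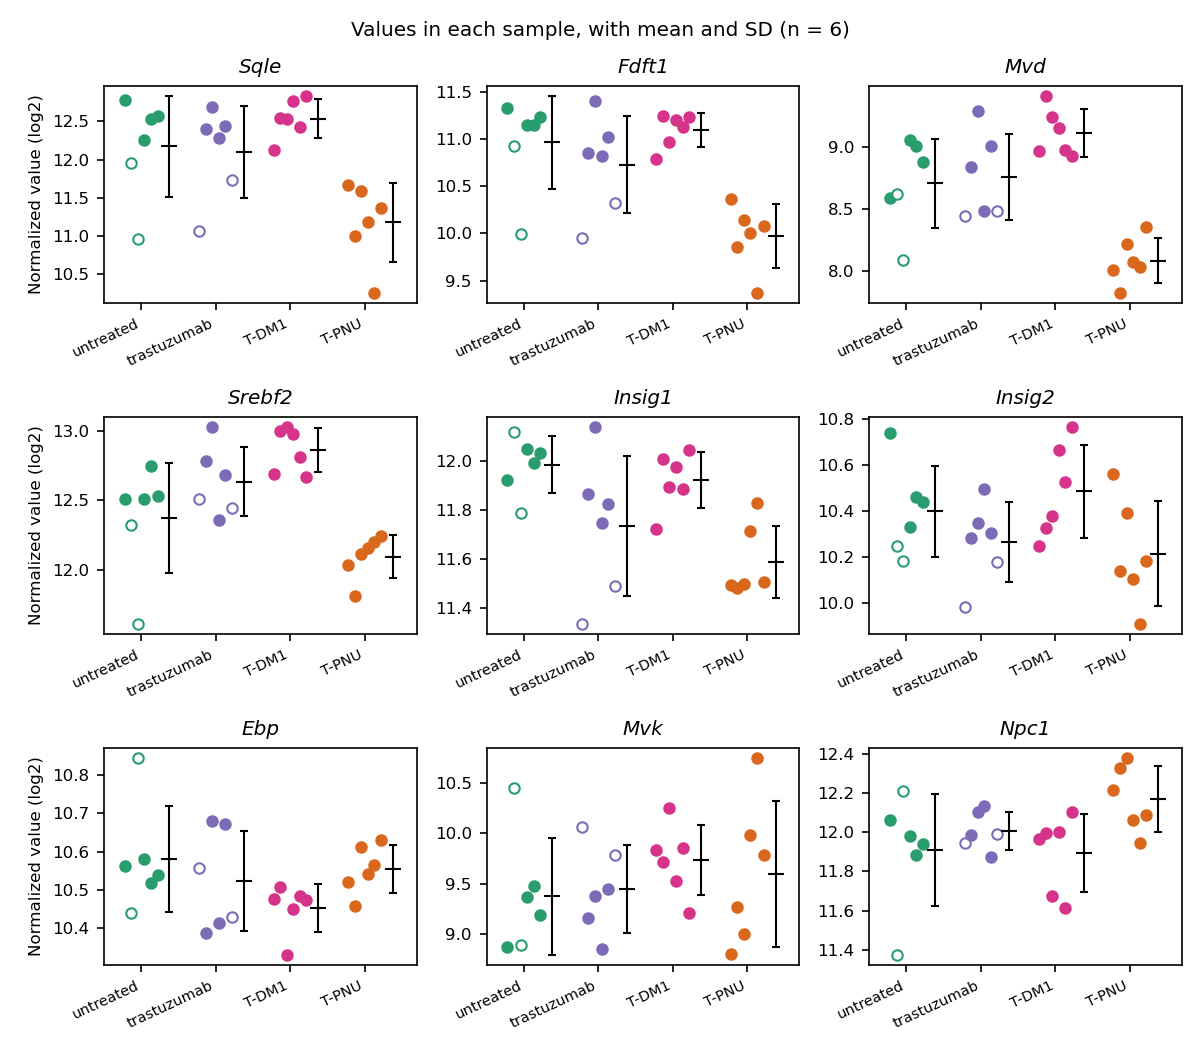
Normalized log2 value of 9 sterol genes in each sample, by group, with the mean and SD (n = 6) beside the points; each panel has its own vertical axis. Open circles are the 4 samples not labelled in the study's heatmaps. For Sqle, Fdft1, Mvd and Srebf2 the T-PNU points lie below all T-DM1 points, whereas Mvk spans 8.797 to 10.75 in T-PNU tumors.

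The regulators differed among themselves. Srebf2 had T-PNU values from 11.82 through 12.13 to 12.24 and T-DM1 values from 12.67 through 12.89 to 13.02. The groups did not overlap, and the gene fell by 0.77 ± 0.14, or 1.70-fold (adjusted p = 0.00161). Insig1, itself a target of SREBP2, ran from 11.48 through 11.50 to 11.83 in T-PNU and from 11.72 through 11.93 to 12.04 in T-DM1 tumors. It fell by 0.34 (adjusted p = 0.0186), with 5 of 6 T-PNU samples below all T-DM1 samples. Insig2 differed by -0.27 (95% interval -0.51 to -0.03, adjusted p = 0.0744). Scap, the escort of SREBP2, differed by -0.16 (-0.38 to 0.06, adjusted p = 0.253).

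Of the genes that move, release or store sterol, Stard4, a carrier of cholesterol between membranes and a known SREBP2 target, fell by 0.44 (adjusted p = 0.0367). That call was lost in 9 of 12 fits with 1 library left out. Npc1 and Npc2, which hand cholesterol out of the lysosome, differed by 0.28 (interval 0.05 to 0.51) and by 0.09 (-0.13 to 0.31). Soat1, which esterifies cholesterol for storage, differed by 0.26 (0.02 to 0.49). With the spread estimated from 20 samples, Npc1 (adjusted p = 0.0191) and Soat1 (adjusted p = 0.0321) were called higher in T-PNU tumors, and Acat2, Dhcr7 and Insig2 lower. Of the 17 genes called with all samples, 13 kept their call in all 12 fits that left out 1 library, the exceptions being Idi1, Tm7sf2, Nsdhl and Stard4.

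Against trastuzumab, the antibody without a payload, none of the 28 genes passed the limma test with all 24 samples, where 1 gene of all those tested did (0.00588%). At an unadjusted p under 0.05 there were 16 of the 28, where 19.5% of all genes were, and the smallest adjusted p was 0.125, for Mvd. The means of 21 genes were lower in T-PNU tumors. For Mvd and Srebf2 every T-PNU value lay below every trastuzumab value, a pattern found in 0.412% of all genes. Srebf2 ran from 12.36 through 12.59 to 13.03 in trastuzumab tumors, and Mvd from 8.44 through 8.66 to 9.29. Sqle ran from 11.07 through 12.34 to 12.69, and trastuzumab E2 was the lowest of them. With E2 and B3 and the 2 untreated samples left out, 16 genes were called lower and none higher, where 13.5% and 14.6% of all genes were called. Those were 4 mevalonate genes, the 3 squalene and lanosterol genes, 6 of the later steps, Srebf2, Insig1 and Stard4. Sqle then differed by -1.27 (adjusted p = 0.00303) and Cyp51 by -1.03 (adjusted p = 0.0004). Leaving out any single sample of the 2 groups gave no call.

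Between T-DM1 and untreated tumors 2 of the 28 genes were called, a share near that of all genes. Srebf2 rose by 0.49 ± 0.14 (adjusted p = 0.0424) and Scap by 0.38 ± 0.11 (adjusted p = 0.0364), where 4.11% of all genes were called higher and 2.15% lower. Srebf2 ran from 11.61 through 12.51 to 12.74 in untreated tumors, with C1 the lowest, and 4 of 6 T-DM1 samples exceeded that range. Scap ran from 9.97 through 10.13 to 10.46 in untreated and from 10.26 through 10.56 to 10.82 in T-DM1 tumors, and 5 of 6 T-DM1 samples were above all untreated ones. Neither was called with 20 samples, where Scap differed by 0.41 (adjusted p = 0.0569) and Srebf2 by 0.29 (adjusted p = 0.174). Each kept its call in 3 of 12 fits with 1 library left out. No enzyme of the pathway was called, and intervals for Hmgcs1 (-0.29 to 0.62), Sqle (-0.23 to 0.95) and Cyp51 (-0.35 to 0.62) span both directions.

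Between T-DM1 and trastuzumab none of the 28 genes was called by limma (0.647% of all genes were), and 2 had an unadjusted p under 0.05, where 15.3% of all genes did. The lowest adjusted p was 0.281, for Mvd, with an interval from 0.03 to 0.68. None was called between trastuzumab and untreated tumors either (0.259% of all genes), again with 2 at an unadjusted p under 0.05, where 8.77% of all genes were. Differences there ran from -0.25 for Insig1 to 0.27 for Scap. The lists and groups in these 5 comparisons share samples, so their results are not independent of each other.

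Neighbouring pathways were counted in the same fit for T-PNU against T-DM1, where 17.4% of all genes were called lower and 12.4% higher. With the 20 samples those shares were 20.1% and 19.8%. Of 14 genes of fatty acid synthesis, which answer in part to the related factor SREBP1, 8 fell and none rose, with a median of -0.43. Examples chosen after their values were seen are the desaturases Fads2 (-1.23, adjusted p = 0.00288) and Scd2 (-0.85, adjusted p = 0.00362). Of 16 other genes of sterol transport and lysosomal release, 3 fell and 7 rose, with a median of 0.20. Gramd1b, which carries cholesterol from the plasma membrane to the endoplasmic reticulum, rose by 0.78 (adjusted p = 0.00047), and the scavenger receptor Cd36 rose by 1.07 (adjusted p = 0.00241). Of 9 genes of LXR and cholesterol efflux, 3 rose and 1 fell. Abca1, the pump that passes cholesterol to apolipoproteins, rose by 0.71 (adjusted p = 0.00223), and the gene that fell was Srebf1, by 0.43 (adjusted p = 0.0109). With the 20 samples the counts were 9 lower and 1 higher for fatty acid synthesis, 4 lower and 8 higher for sterol transport, and 1 lower and 4 higher for LXR and efflux.

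The other lists were counted in the same way for T-PNU against T-DM1, beside the same shares of all genes (17.4% lower and 12.4% higher). In the list of SREBP processing and sterol-regulated degradation 2 of 12 fell and 2 rose, with a median of 0.02. Of 12 genes that use isoprenoids 2 fell and none rose, and of 6 genes of oxysterol formation and removal 1 rose (2 with the 20 samples) and none fell. In T-DM1 against untreated tumors, Gramd1b fell by 0.54 (adjusted p = 0.00831), Srebf1 rose by 0.52 (adjusted p = 0.0149) and Cyp7b1, an oxysterol hydroxylase, rose by 0.42 (adjusted p = 0.0231). With the 20 samples no gene of the LXR and oxysterol lists was called in that comparison. Gramd1b also fell by 0.53 in T-DM1 against trastuzumab tumors (adjusted p = 0.0267). No gene of these 6 lists was called in T-PNU against trastuzumab tumors with all 24 samples. With the 20 samples 9 of 14 genes of fatty acid synthesis were called lower and 4 of 9 of LXR and efflux higher. The other lists had calls in both directions. These were 3 lower and 3 higher for sterol transport, and 2 lower and 1 higher for SREBP processing. Isoprenoid use had 2 lower and 1 higher, and the oxysterol list 1 lower and 2 higher. Of all genes, 13.5% were then called lower and 14.6% higher.

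Markers of other cells were counted in T-PNU against T-DM1 tumors too, where 17.4% of all genes were called lower and 12.4% higher. With the 20 samples those shares were 20.1% and 19.8%. Of 14 markers of tumor and stromal cells, 7 fell and 3 rose in T-PNU against T-DM1 tumors, with a median of -0.66, and their average level ran from -0.72 to 0.10 in T-PNU and from 0.09 to 0.35 in T-DM1 tumors. The lowest value of any of these 14 markers was 6.34, where the lowest value of all genes was 1.13. In T-PNU G1 the level of this mixed list was 0.10, within the range of T-DM1, and the sterol genes averaged -0.26 in that sample. Of the keratins in the list, Krt8 stood at 13.11 in G1, its highest T-PNU value and below the lowest T-DM1 value of 13.17. Sqle, Fdft1, Lss and Msmo1 were also at their highest T-PNU value in G1. Krt8 and these genes were lowest in the same sample of each group, namely untreated C1, trastuzumab E2, T-DM1 C3 and T-PNU C2. Acat2, Mvk, Pmvk, Idi1, Lbr and Stard4 were instead at their lowest T-PNU value in G1. Krt18 stood at 11.06 in G1, within the T-DM1 range of 10.81 to 11.45. The part of tumor cells in the sterol values was not tested. Macrophage and monocyte markers rose in 6 of 10 genes, and their level ran from -0.04 to 0.49 in T-PNU and from -0.68 to -0.04 in T-DM1 tumors. Of 10 proliferation markers 1 fell and 1 rose, with levels from -0.71 in C2 to 0.13 in G1 for T-PNU and from -0.23 to 0.09 for T-DM1. T cell markers (7 of 8 measured) and B cell markers (8) had medians of 0.90 and 1.02 and no call. With the 20 samples 2 T cell markers and 7 macrophage and monocyte markers were called higher, 7 tumor and stromal markers lower and 4 higher, and 2 proliferation markers lower and 1 higher.

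The level of T cell markers in T-PNU tumors ran from -0.44 in G1 to 1.83 in C2, while the sterol genes averaged -0.26 in G1 and -0.28 in C2. Those averages hold genes that differed in opposite directions. Sqle (11.67 in G1 and 10.26 in C2), Fdft1, Lss, Tm7sf2, Msmo1, Nsdhl, Sc5d and Insig2 were highest of the T-PNU samples in G1 and lowest in C2. Mvk (8.797 in G1 and 10.75 in C2), Acat2, Pmvk, Idi1, Lbr and Stard4 were lowest in G1 and highest in C2. Of 8 neutrophil markers 2 rose, of 8 dendritic cell markers 2 rose and 1 fell, of 5 measured markers of adipose tissue and muscle 1 rose, and none of 3 measured red blood cell markers was called. With the 20 samples 4 neutrophil markers were called higher and 1 lower, and 1 red blood cell marker lower. In untreated C1, whose sterol genes averaged -0.38, the macrophage level was the highest of its group at 0.83 and the level of tumor and stromal markers the lowest at -0.41. The part of each cell type in the differences of the sterol genes was not tested.

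**Figure D5:**
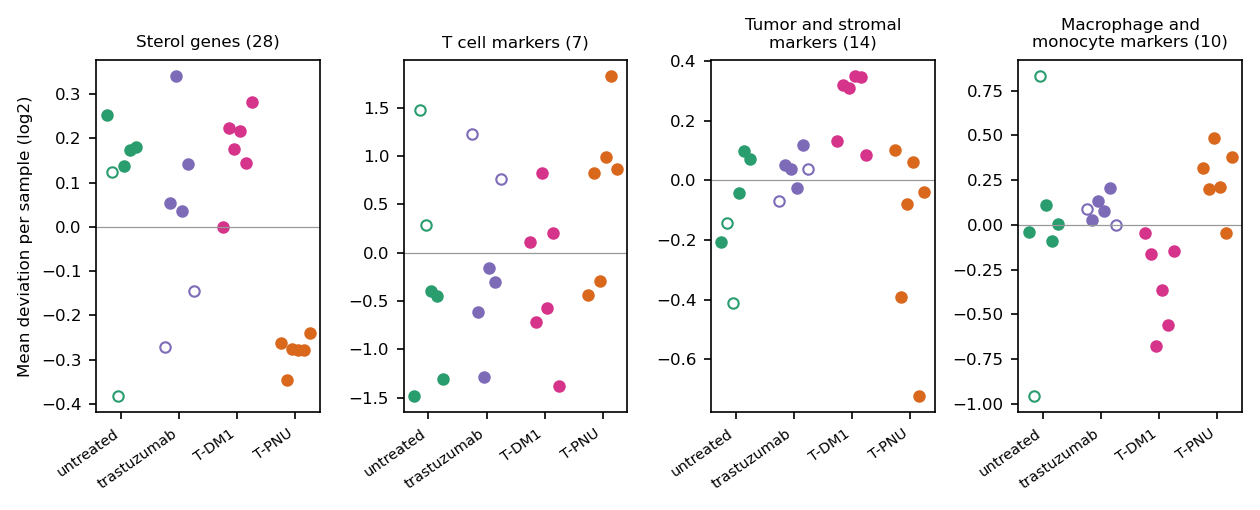
Average deviation in log2 units from each gene's mean over 24 samples, per sample, for the 28 sterol genes and for markers of T cells (7), of tumor and stromal cells (14) and of macrophages and monocytes (10). Open circles are the 4 samples not labelled in the study's heatmaps. The 6 T-PNU samples lie between -0.35 and -0.24 in the first panel, while their T cell level runs from -0.44 to 1.83. The first panel averages genes that differ in opposite directions between T-PNU samples.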

How the data were processed

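RNA-seq libraries of CD45+ cells were mapped and counted by the authors, whose processing notes name STAR 2.4.2a, Picard, Subread 1.5.0 with featureCounts, DESeq2 and build mm10. The deposited table holds log2 values normalized by the authors for library size, and its exact transformation is not given in the sources used here, so fold changes of low genes may be understated. It holds 16996 genes and 24 samples, and read depth is unknown. A linear model with moderated variances and a mean-variance trend (limma 3.58.1, R 4.3.3) was fitted to all 4 groups together, p-values were adjusted by Benjamini-Hochberg over all genes and called under 0.05. The fit was tested on simulated data. Samples of a group are separate mice per the labels. The members, gene lists, marker lists and tests were chosen with earlier results of these data known. All 28 members were named and, of the neighbouring lists, up to 3 called genes with the smallest adjusted p in each comparison. Fads2, Scd2 and Srebf1 were named in T-PNU against T-DM1 tumors outside this rule. Gene positions come from GENCODE M21 (GRCm38), which held 99.6117% of the identifiers. Alternatives were 20 samples, quantile normalization, a filter on low genes, 2 groups only, sample weights, stricter thresholds and leaving out each sample.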

Additional observations from a re-analysis of the deposited data

Results flagged for a closer look

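In each group of 6, the highest or lowest sample was compared with its nearest neighbour, and a gap was recorded when its share of the group's range exceeded Dixon's 95% critical value. This picked out 12 of 112 pairs of gene and group. Chance alone gives about 1 in 20 for independent pairs. The genes share their samples, so the pairs are not independent and no excess over chance can be read from this count. Of the 12 pairs, 8 concern untreated C1. Its values were the lowest of the untreated group for Acat2 (8.75, next 9.48), Fdps (6.75, next 7.64), Fdft1 (9.99, next 10.93), Cyp51 (11.11, next 12.47), Hsd17b7 (8.90, next 9.87), Sc5d (9.98, next 10.69) and Stard4 (9.84, next 10.58). Its Ebp value was the highest (10.84, next 10.58). Untreated B1 had the highest Lbr value (12.21, next 11.18). In the T-DM1 group, H3 had the highest Idi1 value (8.09, next 7.23), C3 the lowest Hsd17b7 value (9.64, next 9.94) and E3 the lowest Ebp value (10.33, next 10.45). No T-PNU or trastuzumab sample was recorded. C1 and B1 are among the 4 samples that the study's heatmaps do not label.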

How the results depend on the processing

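In T-PNU against T-DM1 tumors the 17 calls became 22 with 20 samples, 15 after quantile normalization, 18 with 2 groups only and 23 with sample weights. They became 13 of the 24 genes above the median level, and 6 at an FDR under 0.01 with a fold above 2. With 20 samples 20.1% of all genes were called lower and 19.8% higher. Under the other alternatives the share of all genes was not counted, so these counts cannot be read as specific to the sterol genes. Leaving out 1 sample gave 14 to 19. In T-PNU against trastuzumab tumors the count of 0 became 16 with 20 samples and 15 with sample weights, and stayed at 0 with 1 sample left out. With 20 samples 13.5% of all genes were called lower and 14.6% higher in that comparison. In T-DM1 against untreated tumors the 2 calls became 0 with 20 samples, 0 with 2 groups only and 0 under the stricter thresholds, and 0 to 2 with 1 sample left out. The counts of 0 for T-DM1 against trastuzumab and for trastuzumab against untreated tumors stayed at 0 in each alternative. The 22 genes with a lower mean in T-PNU than in untreated tumors became 20 with 20 samples, and 21 to 23 with 1 sample left out.

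With 20 samples these differences, none called in either fit, turned direction. For T-DM1 against untreated they became -0.11 for Hmgcs1, -0.14 for Idi1, -0.031 for Fdps, -0.12 for Fdft1, -0.10 for Lss, -0.14 for Cyp51, -0.18 for Msmo1, -0.091 for Hsd17b7, -0.020 for Dhcr7 and -0.0069 for Insig2. For T-DM1 against trastuzumab they became -0.086 for Hmgcs1, -0.20 for Idi1, -0.017 for Cyp51, 0.049 for Lbr, -0.085 for Msmo1, -0.11 for Nsdhl, -0.11 for Sc5d and -0.042 for Stard4. For T-PNU against trastuzumab Scap became 0.030, and for trastuzumab against untreated Mvk became -0.017 and Idi1 0.064. After quantile normalization Npc1 became 0.0043 for T-DM1 against untreated. The cause was not tested. Quantile normalization moved the median difference of all genes by less than 0.1 log2 units in each comparison, the widest move being from 0.0080 to -0.018 for T-PNU against untreated. No paired analysis was possible because the groups share no replicate names. Without read depth, counting error cannot be given.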
